A study of Homo sapiens with 24 samples.

Results

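The high mobility group (HMG) genes encode small, abundant chromatin proteins that bind DNA or nucleosomes without regard to a long sequence. The 10 genes *HMGA1*, *HMGA2*, *HMGB1*, *HMGB2*, *HMGB3*, *HMGN1*, *HMGN2*, *HMGN3*, *HMGN4* and *HMGN5* were taken by symbol from the 25702 identifiers of the count tables, and all 10 passed the low-count filter that left 13356 genes for testing. They were followed through RNA-seq of 24 libraries of IMR90 cells, a line of human lung fibroblasts, to ask whether loss of *HMGA1* or activation of RAS is accompanied by a change in the other members. Every library came from cells at passage 23 to 28 that carried ER:HRAS(G12V), oncogenic RAS fused to the oestrogen receptor, so that the control cells held the construct too. Growing cells had the empty MSCV vector and no agent, shHMGA1 cells had a hairpin in a miR30 backbone in the same retroviral vector and no agent, RIS (RAS-induced senescence) cells had the empty vector and 6 days of 4-hydroxytamoxifen (4OHT), and RIS+shHMGA1 cells had the hairpin and the same treatment. There were 6 biological replicates in each of the 4 groups, and a single hairpin was used. The labels and the study's methods name the hairpin for *HMGA1*. The target sequence printed in the methods occurs in annotated *HMGA2* transcripts on GRCh37 and in none of *HMGA1*, so that name and sequence disagree. The source of this mismatch was not tested. Between hairpin and vector cells, *HMGA1* had log2 fold changes of −2.76 without and −2.05 with RAS. *HMGA2* had −0.15 and −0.29, and only the values of *HMGA1* passed the thresholds given below.

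The 3 HMG families share a name and little else. HMGA proteins carry AT-hooks, short motifs that sit in the minor groove of AT-rich DNA, and are structural parts of the senescence-associated heterochromatic foci (SAHFs) of RAS-senescent fibroblasts. HMGB proteins carry HMG boxes, which bend DNA, and HMGB1 is in addition released from stressed or senescent cells as an alarmin, while HMGB2 is known to be lost when fibroblasts enter senescence. HMGN proteins bind the nucleosome itself and counter compaction by linker histone.

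Total counts lay between 8698070 and 23103424 with a median of 10604084, and all 9 fibroblast markers exceeded 1 CPM (counts per 1e6 reads counted) in at least 1 library. Their summed level was 5250 to 41200 CPM in growing, 5840 to 27600 CPM in RIS, 14400 to 20600 CPM in shHMGA1 and 4610 to 6000 CPM in RIS+shHMGA1 libraries, and 8 of the 9 were called lower between RIS+shHMGA1 and shHMGA1. The part of this shift in the members' values was not tested. In bulk RNA, fewer cells of a type and less RNA per cell cannot be told apart. Expression is given as CPM on library sizes normalised by TMM. Growing replicate 4 and RIS replicate 2 went against their labels: on the first principal component, which held 73.9% of the variance, the former scored 77.3 and the other growing libraries −84.3 to −57.2, whereas the latter scored −77.1 and the other RIS libraries 16.8 to 62.1. In the mean log2 CPM of the fibroblast markers, growing replicate 4 had 7.26 and the other growing libraries 9.71 to 10.1. RIS replicate 2 had 9.74 and the other RIS libraries 7.37 to 8.36. Both libraries were kept in their labelled groups, and fold changes of members against growing or RIS libraries are given with all 24 libraries and with the 22 that remain without them. The 2 were picked from the same expression values that are tested. The SE and adjusted p values of the 22 libraries take no account of that choice and are given as a description. A gene was called where its FDR was under 0.01 and its log2 fold change beyond 0.58 in either direction. All adjusted p values are Benjamini-Hochberg values over the tested genes from the quasi-likelihood test of edgeR.

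Promoter sequences are shown for *HMGB3* and *HMGB1*, which fell with RAS in hairpin cells, and for *HMGN3*, which apart from *HMGA1* differed most between hairpin and vector in cells with RAS. They run from 250 bases before to 50 bases after the start site in RefSeq on GRCh38.p14, and capitals mark matches to the CCAAT box (CCAAT or ATTGG) and to the core of the cell cycle genes homology region, CHR (TTTGAA or TTCAAA), elements found in promoters of genes expressed in G2 and M phase.
HMGB3, chrX:150983085-150983384, plus strand: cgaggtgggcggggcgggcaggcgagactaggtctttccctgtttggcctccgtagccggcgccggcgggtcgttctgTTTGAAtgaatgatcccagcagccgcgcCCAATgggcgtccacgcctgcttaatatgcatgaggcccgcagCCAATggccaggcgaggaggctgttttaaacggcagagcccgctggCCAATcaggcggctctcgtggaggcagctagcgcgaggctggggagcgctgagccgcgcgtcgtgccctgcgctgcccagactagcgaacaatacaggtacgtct
HMGB1, chr13:30465887-30466186, minus strand: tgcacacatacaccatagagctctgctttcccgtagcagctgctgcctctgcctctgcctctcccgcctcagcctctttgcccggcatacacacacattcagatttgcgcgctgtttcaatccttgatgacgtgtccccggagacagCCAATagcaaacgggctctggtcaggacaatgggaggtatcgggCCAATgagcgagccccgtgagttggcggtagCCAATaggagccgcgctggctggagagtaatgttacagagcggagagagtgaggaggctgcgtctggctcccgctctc
HMGN3, chr6:79234633-79234932, minus strand: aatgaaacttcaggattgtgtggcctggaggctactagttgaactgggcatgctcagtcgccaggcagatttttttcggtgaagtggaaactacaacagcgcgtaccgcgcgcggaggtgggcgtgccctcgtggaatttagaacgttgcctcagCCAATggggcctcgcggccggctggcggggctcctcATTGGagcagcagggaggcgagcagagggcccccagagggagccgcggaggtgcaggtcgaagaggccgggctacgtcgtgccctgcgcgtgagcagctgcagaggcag
The *HMGB3* window held TTTGAA at −172 and CCAAT at −144, −101 and −55, and the *HMGB1* window held CCAAT at −103, −59 and −28. A second *HMGB1* promoter held TTTGAA at −246 and ATTGG at −115. The *HMGN3* window held CCAAT at −95 and ATTGG at −59. The CCAAT box was also matched in *HMGN1* at −98 and −13, in *HMGN2* at −22 and in separate *HMGA1* windows at −146 and 39. The box was therefore not limited to members that fell with RAS in hairpin cells. Neither the CCAAT box nor the CHR core was matched in *HMGN4*, in *HMGN5* or in a further window each of *HMGB1* and *HMGB3*. Of 35116 human promoter windows of the same length, 34.6% held the CCAAT box and 15.2% the CHR core on either strand. Also searched on both strands were the E2F core (GCGCCAA or GCGGGAA), the E box (CACGTG) and the AP-1 site (TGACTCA), held by 9.23, 7.26 and 4.95% of the windows, and of these the member promoters held an E box in *HMGN2* at −40. Windows were found for 8 of the 10 members, and the matches describe letters only.

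*HMGB2* and *HMGB3* fell when RAS was switched on in hairpin cells. *HMGB2* (Entrez 3148, chromosome 4, 174252527 to 174255583, minus strand, GRCh37) had 42.4, 50.7, 44.3, 60.1, 59.4 and 42.2 CPM in the shHMGA1 libraries, in the order of the replicate numbers. In the RIS+shHMGA1 libraries it had 6.47, 7.28, 7.47, 9.36, 6.72 and 7.44 CPM. All 6 RIS+shHMGA1 libraries lay below all 6 shHMGA1 libraries, and the log2 fold change was −2.74 (SE 0.46, adjusted p = 0.00022). *HMGB3* (Entrez 3149, chromosome X, 150148982 to 150159244, plus strand), the paralogue best known from stem and progenitor cells, had 21.9 to 31.9 CPM with a median of 24.8 in shHMGA1 libraries and 6.59 to 9.01 CPM with a median of 7.74 in RIS+shHMGA1 libraries. Its groups did not overlap either, as was so in this direction for 22.5% of all genes, and the log2 fold change was −1.72 (SE 0.31, adjusted p = 0.00027). Both SE rest on a spread shared by all 4 groups, not on the 2 groups compared alone. Growing replicate 4 and RIS replicate 2 entered that spread. Without them *HMGB2* was at −2.75 (SE 0.13, adjusted p = 1.8e-14) and *HMGB3* at −1.72 (SE 0.12, adjusted p = 1.8e-11).

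In vector cells the same genes depended on the 2 libraries that went against their labels. *HMGB2* had 41.0, 44.6, 49.5, 7.07, 40.4 and 31.4 CPM in growing replicates 1 to 6. In RIS replicates 1 to 6 it had 5.59, 38.7, 5.53, 6.65, 4.40 and 6.57 CPM, so that growing replicate 4 stood at the RIS level and RIS replicate 2 at the growing level. The log2 fold change of RIS against growing was −1.67 with all libraries (SE 0.44, adjusted p = 0.021) and −2.85 without these 2 (SE 0.15, adjusted p = 8.7e-14). *HMGB3* had 22.5 to 32 CPM in the growing libraries other than replicate 4, which had 6.17 CPM, and 6.50 to 9.77 CPM in the RIS libraries other than replicate 2, which had 26.2 CPM. Its log2 fold change was −1.0 with all libraries (SE 0.30, adjusted p = 0.032) and −1.63 without them (SE 0.13, adjusted p = 2.0e-10). With all 24 libraries, no member and none of the 13356 genes was called between RIS and growing (background 0%), although 3 members and 33.0% of all genes had an unadjusted p under 0.05. DESeq2 called 1 member there (*HMGB2*) among 829 genes. Without the 2 libraries 3 members were called, all lower in RIS (*HMGB2*, *HMGB3* and *HMGN5*), where 39.7% of all genes were called and 20.5% called lower.

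*HMGB1* (Entrez 3146, chromosome 13, 31030841 to 31191734, minus strand) moved the same way by a smaller step. It had 35.5, 42.3, 35.03, 57.9, 49.3 and 53.4 CPM in shHMGA1 replicates 1 to 6. In RIS+shHMGA1 replicates 1 to 6 it had 29.4, 29.2, 26.5, 30.7, 31.9 and 24.7 CPM, and the groups did not overlap. The log2 fold change of −0.67 (SE 0.16, adjusted p = 0.0019) lay close to the fold threshold, and the call was lost when replicates numbered 4 (−0.55) or 6 (−0.58, adjusted p = 0.013) were left out of all groups, with limma voom (−0.57), in edgeR's glmTreat test against the fold threshold (adjusted p = 0.32) and when the trend with transcript length described below was removed (−0.36, adjusted p = 0.048). In vector cells *HMGB1* had 22.2, 31.3 and 45.6 CPM as lowest, median and highest value in growing and 17.0, 24 and 29.5 CPM in RIS libraries, which overlapped. The log2 fold change was −0.40 (SE 0.16, adjusted p = 0.091) with all libraries and −0.52 (SE 0.16, adjusted p = 0.0085) without the 2, where it passed the FDR but not the fold threshold. These 3 *HMGB* genes were the only members called between RIS+shHMGA1 and shHMGA1, all lower, a contrast in which 39.1% of all genes were called and 19.5% were called lower. A count of 3 in 10 members is therefore near the background of that comparison.

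**Figure D1:**
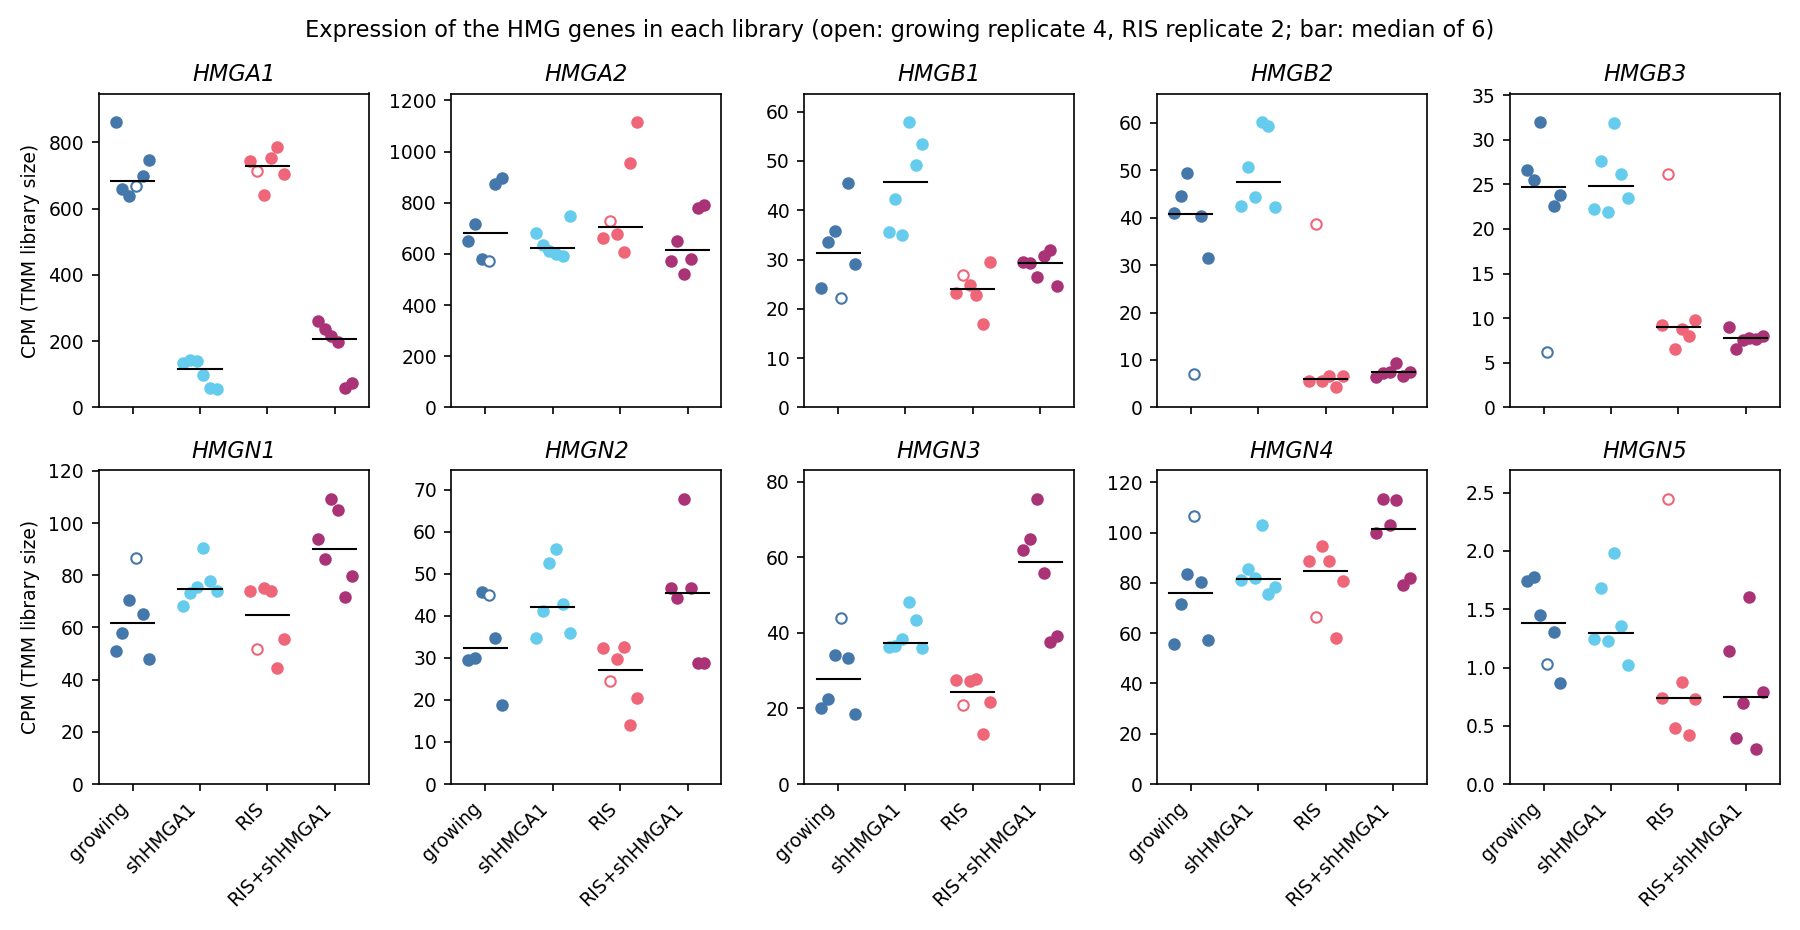
CPM of the 10 HMG genes on linear axes from 0 in the 6 libraries of each group, in the order of the replicate numbers, with the group median as a bar and growing replicate 4 and RIS replicate 2 as open circles. *HMGB2* and *HMGB3* separate the untreated from the 4OHT-treated libraries except for the open circles, and *HMGN3* reached 37.6 to 75.5 CPM in RIS+shHMGA1 against 13.2 to 27.9 CPM in RIS libraries.

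The hairpin itself was not accompanied by a call in any *HMGB* gene. Between shHMGA1 and growing, *HMGB2* differed by a log2 fold change of 0.48 (SE 0.42, adjusted p = 0.68) with an interval of 2 standard errors from −0.37 to 1.33, and by 0.27 without growing replicate 4 and RIS replicate 2 (SE 0.13, adjusted p = 0.11). *HMGB3* differed by 0.16 (SE 0.29, adjusted p = 0.86), and by −0.03 without them (SE 0.12, adjusted p = 0.86). *HMGB1* was above the growing mean in 6 of 6 shHMGA1 libraries, with a log2 fold change of 0.52 (SE 0.16, adjusted p = 0.15), which was 0.44 without them (SE 0.15, adjusted p = 0.047). Between RIS+shHMGA1 and RIS, *HMGB2* had a log2 fold change of −0.60 (SE 0.45, adjusted p = 0.29) with all libraries. Without the 2 libraries the sign turned, to 0.37 (SE 0.15, adjusted p = 0.053), and 5 of 6 RIS+shHMGA1 libraries lay above all 5 RIS libraries. *HMGB3* was at −0.56 (SE 0.31, adjusted p = 0.15) and at −0.12 (SE 0.13, adjusted p = 0.48) in the 2 fits.

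The *HMGB* pattern ran beside that of S, G2 and M phase genes. All 22 genes of that list were called lower between RIS+shHMGA1 and shHMGA1, with a median log2 fold change of −2.62 against −0.02 over all tested genes. The 2 largest falls were those of *MYBL2* (−4.77, SE 0.84, adjusted p = 0.00025), a transcription factor of late cell cycle genes, and *E2F2* (−4.74, SE 0.91, adjusted p = 0.00036). The smallest were those of *CCNB1*, the mitotic cyclin B1 (−1.69, SE 0.32, adjusted p = 0.00033), and *PCNA*, the replication clamp (−0.62, SE 0.17, adjusted p = 0.0047). None of the 22 was called between hairpin and vector cells with all 24 libraries. The genes whose log2 CPM followed *HMGB2* most closely over the 24 libraries were *CDC20* (Pearson's r = 0.994), *UBE2C* (0.993) and *TK1* (0.992), which serve mitosis and nucleotide supply. For *HMGB3* they were *PRC1* (0.984), *KIF20A* (0.983) and *KIF11* (0.983), whose products act on the mitotic spindle. For *HMGB1* they were *RAD1* (0.945), *NUP107* (0.939) and *C5orf34* (0.937). The libraries fall into an untreated and a treated cluster, as the r values describe in the main, and no test was made of them. Growing replicate 4 and RIS replicate 2 lay with the opposite cluster in *HMGB2*, *HMGB3* and the phase genes alike.

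**Figure D2:**
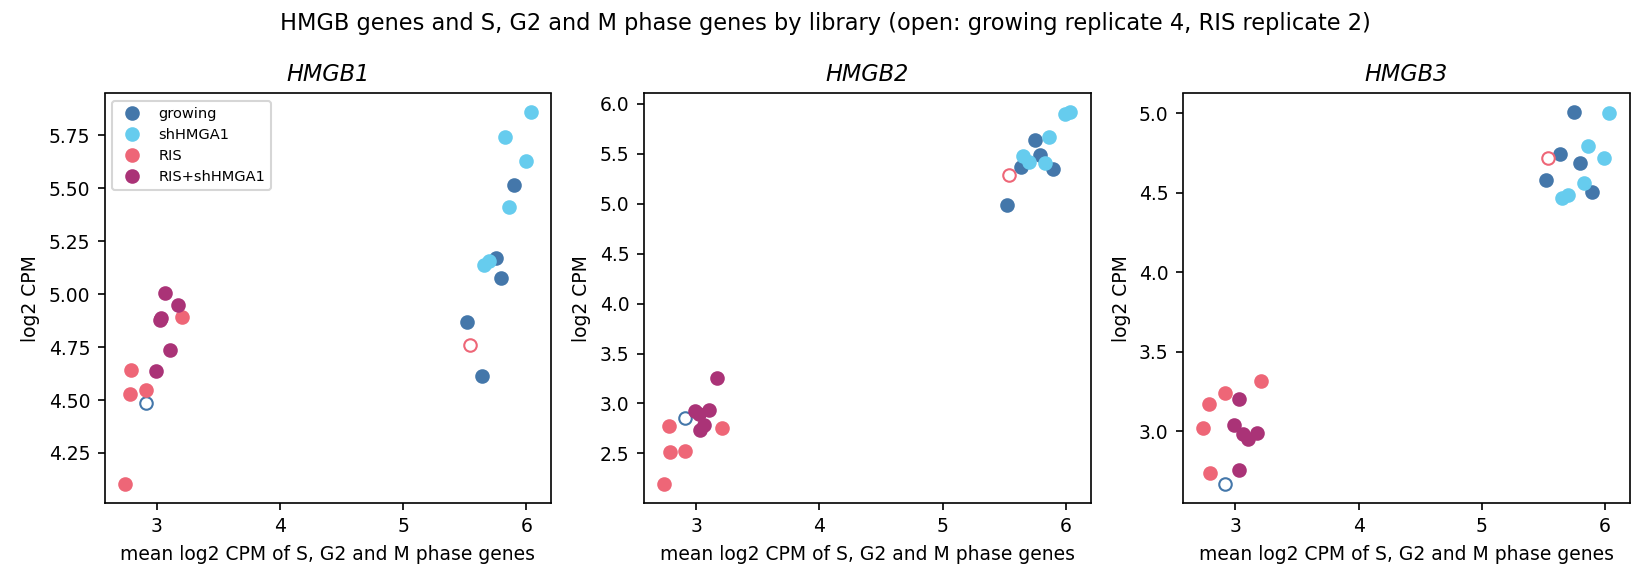
log2 CPM of *HMGB1*, *HMGB2* and *HMGB3* against the mean log2 CPM of the 22 S, G2 and M phase genes, 1 point per library, coloured by group, with growing replicate 4 and RIS replicate 2 open. The libraries form an untreated and a treated cluster with none between, the open circles lie in the opposite cluster, and the clusters are apart in *HMGB2* and *HMGB3* but overlap in *HMGB1*.

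*HMGA1* (Entrez 3159, chromosome 6, 34204650 to 34214008, plus strand), the gene the hairpin is named for, was the only member called between shHMGA1 and growing, where 0.270% of all genes were called. Its log2 fold change was −2.76 there (SE 0.31, adjusted p = 1.9e-05) and −2.05 between RIS+shHMGA1 and RIS (SE 0.30, adjusted p = 0.00065), or −2.78 and −2.06 without growing replicate 4 and RIS replicate 2. Hairpin and vector libraries did not overlap at either treatment, as was so for 1.30% of all genes without and 13.2% with RAS. Compared with the mean of the vector group under the same treatment, 18.9, 20.1, 19.7, 13.9, 8.16 and 7.64% of its CPM was left in shHMGA1 replicates 1 to 6 and 36.2, 32.6, 30.0, 27.2, 8.29 and 10.4% in RIS+shHMGA1 replicates 1 to 6. Between RIS and growing, *HMGA1* had a log2 fold change of 0.02 (SE 0.29, adjusted p = 0.96), or 0.01 without the 2 libraries (SE 0.31, adjusted p = 0.98). Within the hairpin cells, *HMGA1* was 0.73 higher on the log2 scale with RAS than without (SE 0.29, adjusted p = 0.033), which missed the FDR threshold. That value was 0.55 (SE 0.29, adjusted p = 0.10) when the trend with transcript length described below was removed. Within the hairpin cells RIS+shHMGA1 replicates 1 to 4, at 197 to 262 CPM, lay above all shHMGA1 libraries, at 54.4 to 143 CPM, and replicates 5 and 6, at 60.0 and 75.1 CPM, did not.

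*HMGA2* (Entrez 8091, chromosome 12, 66218240 to 66360071, plus strand), the family's second member and like *HMGA1* a SAHF component, was called in none of the 6 contrasts. In growing libraries it had 573, 683 and 899 CPM as lowest, median and highest value, and in shHMGA1 libraries 592, 622 and 750 CPM. With 4OHT it had 609, 705 and 1116 CPM in vector and 521, 615 and 790 CPM in hairpin libraries. All groups overlapped. All 6 RIS+shHMGA1 libraries lay below the RIS mean, and 3 below every RIS library. In 6 of 6 same-numbered pairs RIS+shHMGA1 was lower than RIS, by log2 differences of −0.50 to −0.07. Between shHMGA1 and growing, 3 such pairs were lower and 3 higher. The numbers were not taken as a pairing, and no share over all genes was taken for these counts. The interval of 2 standard errors of its log2 fold change ran from −0.47 to 0.17 between shHMGA1 and growing and from −0.60 to 0.03 between RIS+shHMGA1 and RIS. Without the 2 libraries the log2 fold changes were −0.21 and −0.31, and RIS against growing, at 0.15 with all libraries, was 0.11. Replicates 5 and 6 had more *HMGA2* than replicates 1 to 4 in growing (872 and 899 CPM against 573 to 716), RIS (955 and 1116 against 609 to 731) and RIS+shHMGA1 (781 and 790 against 521 to 649). In shHMGA1 libraries they did not, with 592 and 750 CPM against 601 to 682.

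The make-up of the HMGA reads therefore changed by way of *HMGA1*. *HMGA1* gave 44.5, 50.1 and 56.9% (lowest, median, highest) of the reads counted on both genes in growing and 38.7, 49.0 and 55.3% in RIS libraries. In shHMGA1 libraries it gave 6.76, 15.3 and 18.7%. In RIS+shHMGA1 libraries it gave 25.3 to 31.4% in replicates 1 to 4 and 7.13 and 8.68% in replicates 5 and 6. No hairpin library reached the lowest vector library. Both genes summed to 1427 ± 176 CPM (SD, n = 6) in growing and 1515 ± 211 CPM in RIS libraries, against 749.9 ± 64.4 CPM in shHMGA1 and 823 ± 55.5 CPM in RIS+shHMGA1 libraries.

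**Figure D3:**
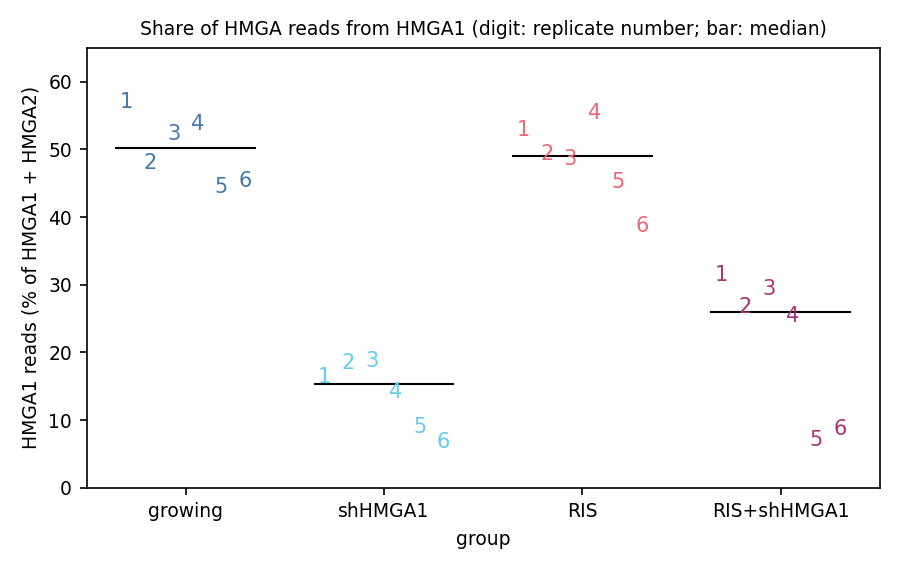
Reads counted on *HMGA1* as a percentage of those on *HMGA1* and *HMGA2* in each library, drawn as its replicate number, with the median of 6 as a bar. Replicates 5 and 6 hold the smallest shares in both hairpin groups, 6.76 and 8.94% in shHMGA1 and 7.13 and 8.68% in RIS+shHMGA1.

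Among the *HMGN* genes, *HMGN3* was called higher in RIS+shHMGA1 than in RIS libraries. *HMGN3* (Entrez 9324, chromosome 6, 79910962 to 79944406, minus strand), which encodes a nucleosome-binding protein found in endocrine and nervous tissue among others, had 27.5, 21.0, 27.2, 27.9, 13.2 and 21.6 CPM in RIS replicates 1 to 6. In RIS+shHMGA1 replicates 1 to 6 it had 61.8, 64.7, 75.5, 55.7, 37.6 and 39.2 CPM. All 6 RIS+shHMGA1 libraries lay above all 6 RIS libraries, and the groups of 13.2% of all genes did not overlap in either direction. The log2 fold change was 1.27 (SE 0.22, adjusted p = 0.0019) and 1.25 without growing replicate 4 and RIS replicate 2 (SE 0.20, adjusted p = 0.00047). *HMGN3* and *HMGA1* were the 2 members called in this contrast, 1 in each direction, where 2.55% of all genes were called, 1.77% higher and 0.786% lower. The *HMGN3* call was lost when replicates numbered 1 (adjusted p = 0.012), 2 (0.023), 3 (0.019) or 5 (0.012) were left out of all groups, with a log2 fold change of 1.20 to 1.35 over the 6 such fits. The fits that lost it called 37, 21, 28 and 14 genes in all, in that order, against 341 with all libraries. Without replicates numbered 4 or 6 the call stayed (adjusted p = 0.0015 and 0.0059), with 2205 and 78 genes called.

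In untreated cells *HMGN3* had 18.4, 27.8 and 44 CPM as lowest, median and highest value in growing and 36.1, 37.4 and 48.1 CPM in shHMGA1 libraries. The log2 fold change was 0.47 (SE 0.21, adjusted p = 0.34), or 0.63 without the 2 libraries (SE 0.20, adjusted p = 0.033), where all 6 shHMGA1 libraries lay above the 5 growing ones, as did those of 3.24% of all genes. RIS and growing differed by −0.31 (SE 0.21, adjusted p = 0.31), or −0.13 without the 2 (SE 0.21, adjusted p = 0.61). RIS+shHMGA1 exceeded growing by 0.96 (SE 0.21, adjusted p = 0.00082), or 1.12 without the 2 (SE 0.20, adjusted p = 2.4e-05), and shHMGA1 by 0.49 (SE 0.21, adjusted p = 0.049). The interaction of hairpin and RAS was 0.80 (SE 0.30, unadjusted p = 0.014, adjusted p = 0.43), or 0.62 without the 2 (SE 0.28, unadjusted p = 0.039, adjusted p = 0.99), so that a different response to the hairpin with and without RAS was not shown. No member had a call for the interaction in edgeR (background 0%), nor in DESeq2 and limma voom, which called 5 and 7 genes, and *HMGN3* was the 1 member with an unadjusted p under 0.05, as were 10.3% of all genes.

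*HMGN1*, *HMGN2* and *HMGN4* lay in the same direction between RIS+shHMGA1 and RIS without a call. *HMGN1* (Entrez 3150, chromosome 21, 40714241 to 40721573, minus strand), a general nucleosome-binding member, had 44.4, 64.8 and 75.2 CPM in RIS and 71.7, 90.1 and 109 CPM in RIS+shHMGA1 libraries (lowest, median, highest). Its log2 fold change was 0.54 (SE 0.15, adjusted p = 0.017), or 0.49 without the 2 libraries (SE 0.14, adjusted p = 0.0091, under the fold threshold). *HMGN2* (Entrez 3151, chromosome 1, 26798931 to 26803133, plus strand), its close paralogue, had 14, 27.1 and 32.5 CPM in RIS and 28.7, 45.4 and 67.8 CPM in RIS+shHMGA1 libraries. Its log2 fold change was 0.78 (SE 0.24, adjusted p = 0.021), or 0.77 without the 2 (SE 0.24, adjusted p = 0.015). *HMGN4* (Entrez 10473, chromosome 6, 26538594 to 26547161, plus strand) had 58.1, 84.7 and 94.6 CPM in RIS and 79.2, 101 and 114 CPM in RIS+shHMGA1 libraries. Its log2 fold change was 0.31 (SE 0.15, adjusted p = 0.11), or 0.26 without the 2 (SE 0.14, adjusted p = 0.13). Of the 6 RIS+shHMGA1 libraries, 5 exceeded every RIS library in *HMGN1*, 4 in *HMGN2* and 4 in *HMGN4*. The share of all genes with such counts was not taken. In RIS+shHMGA1, replicates 5 and 6 were the 2 lowest libraries for each of *HMGN1*, *HMGN2*, *HMGN3* and *HMGN4*. Against growing, RIS+shHMGA1 had log2 fold changes of 0.53 in *HMGN1* (SE 0.15, adjusted p = 0.0044, under the fold threshold), 0.37 in *HMGN2* (SE 0.23, adjusted p = 0.16) and 0.38 in *HMGN4* (SE 0.15, adjusted p = 0.031). Without the 2 libraries *HMGN2* was at 0.46 (adjusted p = 0.074) and *HMGN4* at 0.50 (adjusted p = 0.0020, under the fold threshold). Between shHMGA1 and growing they were 0.28, 0.37 and 0.15, with adjusted p values of 0.44, 0.53 and 0.71, and without the 2 libraries 0.39, 0.46 and 0.27.

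Short transcripts as a class moved the same way as these *HMGN* genes. The median log2 fold change of RIS+shHMGA1 against RIS was 0.68 over 838 tested genes with canonical transcripts under 1 kb, 0.28 over 2317 genes of 1 to 2 kb, −0.07 over 4516 genes of 2 to 4 kb and −0.32 over 4965 longer genes. *HMGN3*, at 958 bases, lay above the median of its class, as did *HMGN1* (1271 bases), *HMGN2* (1940 bases) and *HMGN4* (1943 bases) above theirs. Against growing, the medians of the 4 classes were 0.96, 0.38, −0.05 and −0.40, and *HMGN3* at 0.96 was at its class median. A fit in which the trend with length was removed library by library left *HMGN3* at 0.68 against RIS (SE 0.13, adjusted p = 0.0029, still called), at 0.21 against growing (SE 0.12, adjusted p = 0.14, no longer called) and *HMGN1* at 0.12 against RIS (SE 0.08, adjusted p = 0.24). *HMGN2* stayed at 0.59 against RIS in that fit (SE 0.19, adjusted p = 0.033). There, *HMGN3* in RIS+shHMGA1 was at −0.13 against shHMGA1 (SE 0.12, adjusted p = 0.38), where the main fit had 0.49. *HMGN3* in RIS was at −0.47 against growing (SE 0.13, adjusted p = 0.018), where the main fit had −0.31. The part of transcript length in the results of the other members was not tested beyond this fit, which was added after the data were seen.

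**Figure D4:**
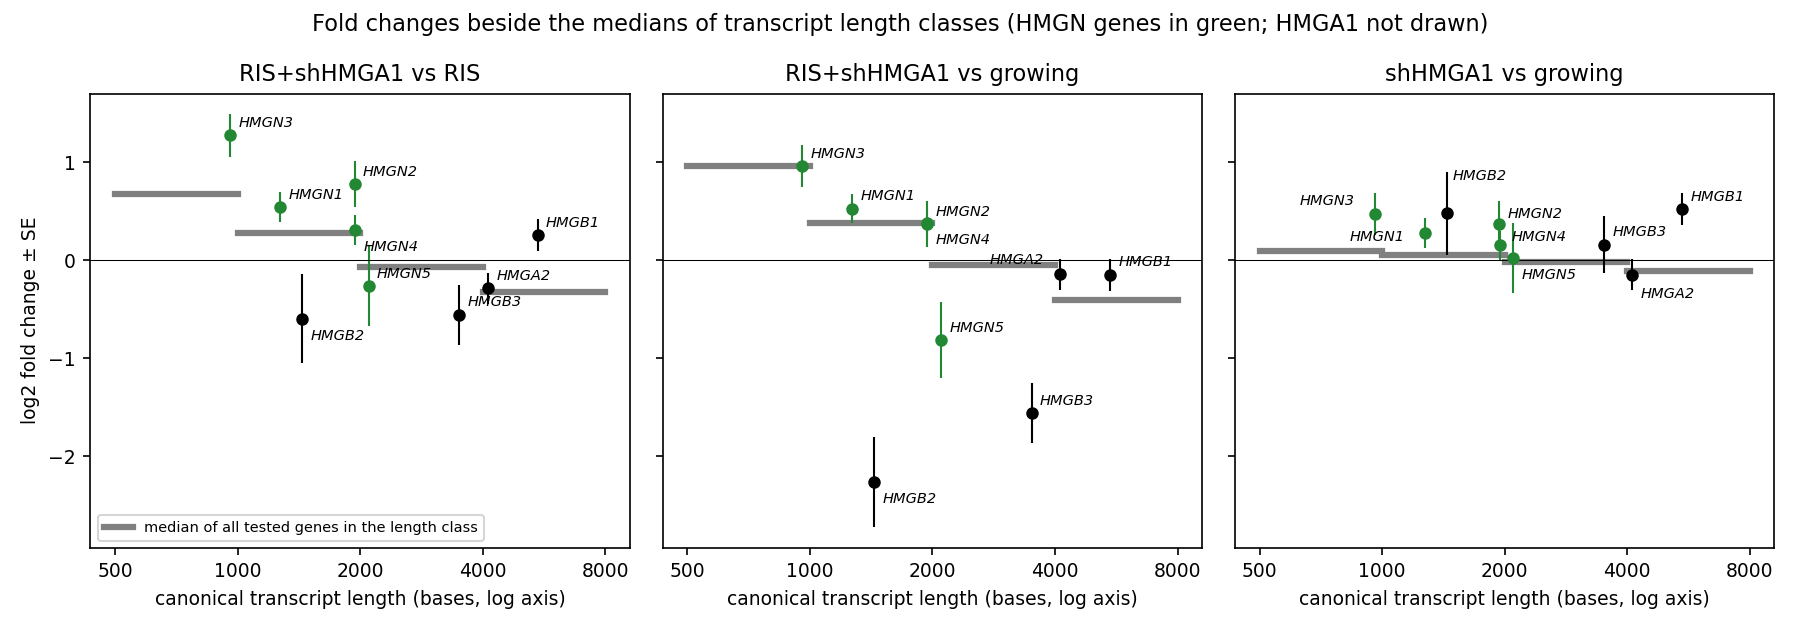
log2 fold change ± SE of each member except *HMGA1* against the length of its canonical transcript on a log axis, for 3 contrasts, with the medians of all tested genes in 4 length classes as grey bars. The bars fall from 0.68 to −0.32 between RIS+shHMGA1 and RIS, and *HMGN3* at 1.27 lies above the first of them.

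*HMGN5* (Entrez 79366, chromosome X, 80369198 to 80457412, minus strand), which differs from the others by a long acidic tail, was counted at 3 to 44 reads per library. It had 0.870 to 1.78 CPM in growing and 0.423 to 2.45 CPM in RIS libraries, 1.02 to 1.98 CPM in shHMGA1 and 0.301 to 1.61 CPM in RIS+shHMGA1 libraries, and the highest RIS value was that of replicate 2. RIS against growing was −0.55 (SE 0.37, adjusted p = 0.30) with all libraries and −1.19 (SE 0.32, adjusted p = 0.0029) without growing replicate 4 and RIS replicate 2. RIS+shHMGA1 against shHMGA1 was −0.83 (SE 0.39, adjusted p = 0.064).

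**Figure D5:**
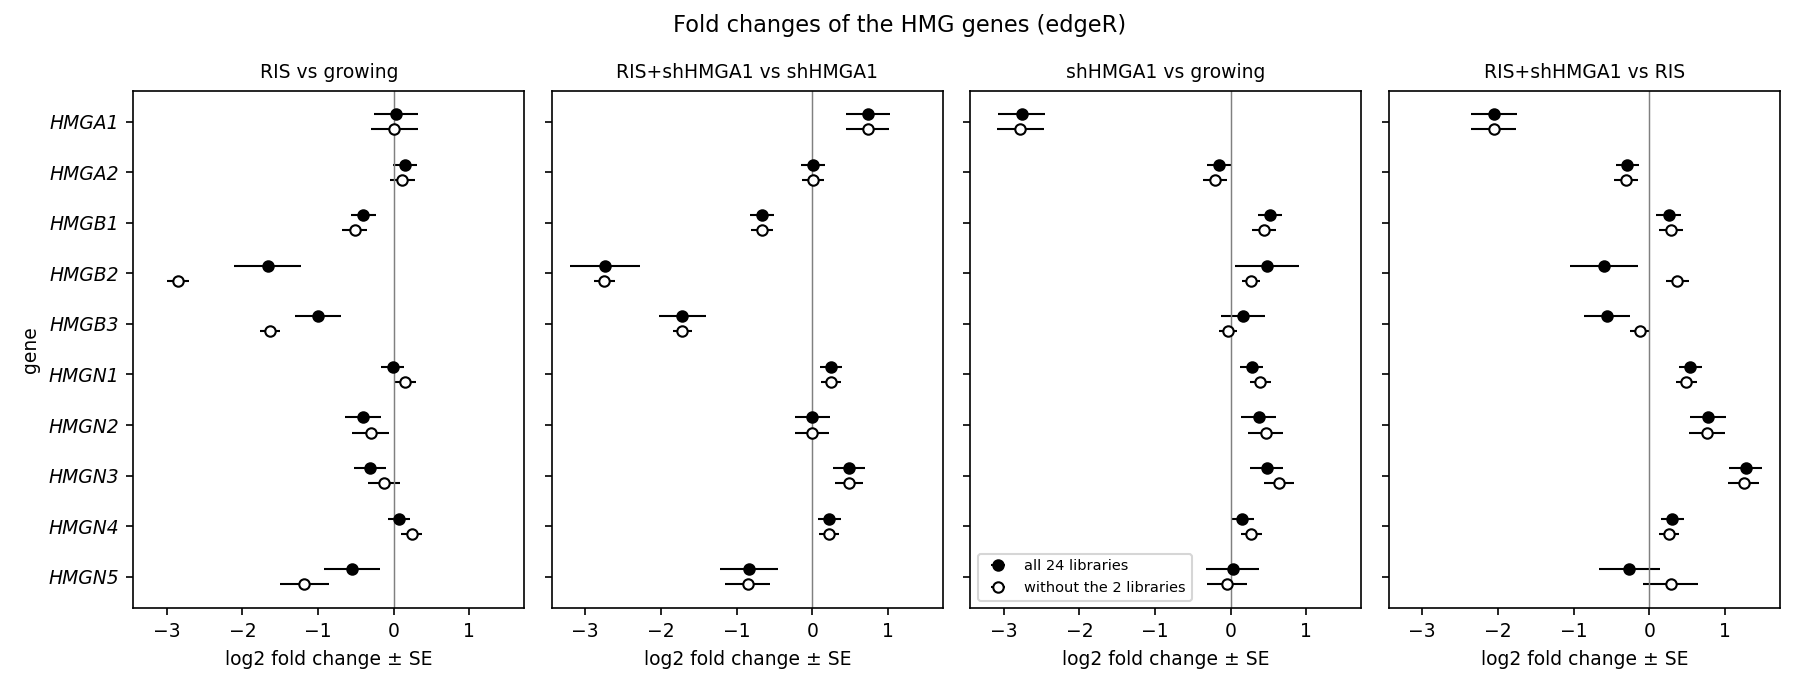
log2 fold change ± SE of the 10 members in 4 contrasts, with all 24 libraries (filled) and without growing replicate 4 and RIS replicate 2 (open). Leaving them out moves *HMGB2* from −1.67 to −2.85 between RIS and growing, and leaves *HMGN3* near 1.25 between RIS+shHMGA1 and RIS.

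Between RIS+shHMGA1 and growing, which differ in both RAS and hairpin, 4 members were called with all libraries, *HMGA1*, *HMGB2* and *HMGB3* lower and *HMGN3* higher, where 45.9% of all genes were called, 23.9% lower and 22.0% higher. *HMGB2* was at −2.26 (SE 0.46, adjusted p = 0.00042) and *HMGB3* at −1.56 (SE 0.31, adjusted p = 0.00036), or −2.48 and −1.75 without the 2. Without the 2 libraries 6 members were called of 56.9% of all genes, with *HMGN5* lower (−0.90, SE 0.30, adjusted p = 0.0099) and *HMGN1* higher (0.64, SE 0.14, adjusted p = 0.00023) in addition.

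Per kilobase of the canonical transcript, the levels in growing libraries were in the order *HMGA1* (371 ± 42.7 CPM per kb, SD, n = 6), *HMGA2* (174 ± 34.4), *HMGN1* (49.7 ± 11.2), *HMGN4* (39.0 ± 9.75), *HMGN3* (30.0 ± 10.5), *HMGB2* (24.7 ± 10.6), *HMGN2* (17.5 ± 5.29), *HMGB3* (6.49 ± 2.5), *HMGB1* (5.83 ± 1.57) and *HMGN5* (0.650 ± 0.176). Of neighbours in that order, *HMGN4* and *HMGN3*, *HMGN3* and *HMGB2*, and *HMGB3* and *HMGB1* differed by less than the SD of either. Without growing replicate 4, *HMGB2* was at 28.7 ± 4.61 CPM per kb and *HMGN3* at 26.8 ± 7.79 CPM per kb (SD, n = 5), which exchanged their places. These levels are uncertain where a gene has near-identical copies, because reads with a mapping quality under 20 had been removed. Of all 50-base windows of the canonical transcript, 58.9% of those of *HMGN1*, 48.1% of *HMGN2*, 33.8% of *HMGB1*, 21.1% of *HMGA1* and 13.6% of *HMGB3* also occurred elsewhere in GRCh37, against under 1% for each of the other 5 members. The counted pseudogenes of the families held at most 7 reads in a library, except *HMGN2P46* with 1 to 17, and *HMGB4* had none in any library, which allows up to 3 reads in each. The antisense genes *HMGA2-AS1* and *HMGN3-AS1* held 2 to 29 and 12 to 61 reads. The strand setting of the counting is not given in the sources used here, so that these reads cannot be told apart from those of the gene opposite.

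The genes that followed the other members most closely over the 24 libraries were *BGN* for *HMGA1* (Pearson's r = 0.921), *DNAJC3* for *HMGA2* (0.929), *SMIM30* for *HMGN1* (0.974), *IFI27L1* for *HMGN2* (0.949), *COMMD7* for *HMGN3* (0.983), *SEPTIN2* for *HMGN4* (0.978) and *ERN2* for *HMGN5* (0.824). The next in likeness were *TGM2* and *RNU6-1* for *HMGA1* (0.885 and 0.882), *SQLE* and *CBLL1* for *HMGA2* (0.910 and 0.895), *TMSB10* and *MRPL24* for *HMGN1* (0.973 and 0.970) and *JPT1* and *LGALS1* for *HMGN2* (0.948 each). They were *LSM3* and *GGH* for *HMGN3* (0.982 and 0.976), *PON2* and *PEX3* for *HMGN4* (0.971 and 0.970) and *ROBO3* and *TNFSF12* for *HMGN5* (0.809 each). The values share libraries, depth and the split into untreated and treated cells.

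Genes related to the members by domain or role were counted in the contrast between RIS+shHMGA1 and shHMGA1, where 39.1% of all genes were called and the median of all was −0.02. Of 24 tested HMG-box relatives, 10 were lower and 2 higher, with a median log2 fold change of −0.41. The largest falls were those of *NSD2*, a histone H3 methyltransferase (−1.84, SE 0.33, adjusted p = 0.00027), and *SOX4* (−1.33, SE 0.27, adjusted p = 0.00049), and the rises those of *TFAM*, which packages mitochondrial DNA (1.04, SE 0.26, adjusted p = 0.0023), and *HBP1*, a repressor of cell cycle genes (0.83, SE 0.25, adjusted p = 0.0073). Of 17 AT-hook proteins other than HMGA, 4 were lower and 0 higher, with a median of −0.59. They were led by *SMARCA2*, a chromatin remodelling ATPase (−1.18, SE 0.29, adjusted p = 0.0018), and *ZFHX3* (−1.17, SE 0.33, adjusted p = 0.0049), whereas *DOT1L* was at −0.12 (SE 0.17, adjusted p = 0.54) and *AHCTF1* at −0.09 (SE 0.15, adjusted p = 0.60). Without growing replicate 4 and RIS replicate 2, 9 of the 17 were called lower (background 21.9%). Neither library is in the groups compared, which share an estimate of the spread with the other groups. The canonical transcript was 4 kb or longer in 16 of the 17 and in 15 of the 24 HMG-box relatives. Transcripts of that class had a median of −0.28 over 4965 genes between RIS+shHMGA1 and shHMGA1. The part of length in the counts of both lists was not tested.

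The genes of let-7 processing and of the LIN28 and IGF2BP families, which act on the *HMGA2* messenger, had 3 lower and 1 higher of 8 tested. The canonical transcript was 4 kb or longer in 7 of the 8. That class had a median of −0.28 between RIS+shHMGA1 and shHMGA1, and the part of length was not tested. *DICER1* (−0.90, SE 0.28, adjusted p = 0.0096) and *DROSHA* (−0.83, SE 0.19, adjusted p = 0.0014), the nucleases of microRNA maturation, fell most. *IGF2BP3* rose (0.81, SE 0.15, adjusted p = 0.00034), and *TUT7* was at 0.18 (SE 0.15, adjusted p = 0.31). *IGF2BP3* was also the 1 gene of this list called between RIS+shHMGA1 and RIS (0.66, SE 0.15, adjusted p = 0.0093). Of 5 tested genes for release or reception of HMGB1, the receptors *TREM1* (3.87, SE 0.94, adjusted p = 0.0017) and *HAVCR2* (3.24, SE 0.84, adjusted p = 0.0026) and the HMGB1-binding *THBD* (3.49, SE 0.76, adjusted p = 0.00080) rose. *CXCL12*, its partner chemokine, fell (−5.65, SE 1.24, adjusted p = 0.00087), and *XPO1*, the exporter, was at −0.14 (SE 0.13, adjusted p = 0.35).

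Of 18 senescence and SAHF genes 7 were higher and 6 lower, with *IL1B* (4.25, SE 0.91, adjusted p = 0.00076) and *IL1A* (3.69, SE 0.75, adjusted p = 0.00052) at the top. *LMNB1*, whose loss marks senescence (−3.59, SE 0.64, adjusted p = 0.00027), and *CBX5*, heterochromatin protein 1 alpha (−1.22, SE 0.30, adjusted p = 0.0018), stood at the bottom. Of 12 RAS output genes 6 were higher and 2 lower, from *DUSP4* (2.59, SE 0.55, adjusted p = 0.00071) and *DUSP5* (1.97, SE 0.31, adjusted p = 0.00020) to *EPHA2* (−0.77, SE 0.22, adjusted p = 0.0044) and *FOSL1* (−0.92, SE 0.20, adjusted p = 0.00075). Of 9 NOTCH genes 1 was higher, *HEY1* (1.52, SE 0.37, adjusted p = 0.0019), and 3 were lower, with *NOTCH3* (−2.15, SE 0.43, adjusted p = 0.00046) and *NOTCH2* (−1.04, SE 0.30, adjusted p = 0.0057) at the bottom and *JAG1* at 0.75 (SE 0.27, adjusted p = 0.020). Between hairpin and vector with all 24 libraries, the lists given here had 0 calls without RAS (background 0.270%). With RAS they had 2 (background 2.55%), *IGF2BP3* higher and the HMG-box gene *TOX2* lower (−0.70, SE 0.16, adjusted p = 0.0094), and of the 9 fibroblast markers 1 was higher and 1 lower. Without growing replicate 4 and RIS replicate 2 there were more calls in both comparisons. Without RAS, 1 senescence and 1 NOTCH gene were lower (background 2.59%). Of the 9 fibroblast markers, 1 was higher and 1 lower in that comparison, with a median log2 fold change of −0.59. With RAS, where 12.5% of all genes were called, 4 senescence genes, 2 S, G2 and M phase genes, 1 HMG-box and 1 let-7 gene were higher. There, 2 HMG-box and 2 AT-hook genes and 1 gene each of HMGB1 release, RAS output and NOTCH were lower, and of the fibroblast markers 2 were higher and 3 lower.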

How the data were processed

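The authors mapped reads to hg19 with STAR 2.5.0b after trimming with cutadapt 1.10.0 (versions from the submitters' processing notes), dropped alignments whose mapping quality was below 20, summarised the rest per gene with Rsubread and deposited raw counts, whole numbers for 25702 Entrez identifiers per library. The libraries came from a stranded mRNA kit, and the strand setting of the counting is not given in the sources used here. Symbols were found for 23696 identifiers. Genes were filtered with filterByExpr by group, normalised by TMM and tested with edgeR 4.0.16 (R 4.3.3, limma 3.58.1) in 1 quasi-likelihood fit of 4 group means to all 24 libraries, with the paper's thresholds. Total counts were 8698070 to 23103424. Counting error was not compared with replicate spread member by member. It weighs most on low counts, as in *HMGN5*, at 3 to 44 reads per library. In RIS+shHMGA1 libraries *HMGB2* and *HMGB3* were also low, at 51 to 86 and 53 to 87 reads. log2 CPM has a prior count of 2, and intervals are 2 standard errors. Alternatives were RLE, DESeq2 1.42.0, limma voom with sample weights, other filters and thresholds, a replicate block, fits to the contrast alone and leave-outs. A fit without the trend with transcript length (12636 genes with a length, 94.6% of those tested) was added after the data were seen.

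The members and lists were chosen with earlier results of these data known. All members are named, with 3 genes of nearest pattern each, and for lists the 2 largest and 2 smallest log2 fold changes between RIS+shHMGA1 and shHMGA1, with, where named in addition, single genes chosen after their values were seen. Gene positions and transcript lengths are from GENCODE on GRCh37, and promoters from RefSeq on GRCh38.p14. Transcript windows of 50 bases were searched on both strands of GRCh37. Self-tests on simulated counts recovered 62% of genes changed by 1 and 91% of genes changed by 2 on the log2 scale for RIS against growing over 13356 genes, with 2 false calls; no simulated library departed from its group. No 2 libraries of a group agreed within sampling noise (the smallest chi-square per gene of 60 pairs was 3.06). Markers of epithelial, endothelial and leukocyte cells summed to 33.5 to 52.5, 14.5 to 125 and 40.8 to 106 CPM, with 4 of 6, 3 of 5 and 2 of 6 genes over 1 CPM in any library. The result of 1 gene list is not reported here.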

Additional observations from a re-analysis of the deposited data

Results flagged for a closer look

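A value was flagged where the gap of its library to the nearest other library of its group, divided by the range of the group, exceeded the 95% critical value of Dixon's test for 6 samples. Of 44 tests of the 10 members and of the total count in 4 groups, 6 did so, where chance gives about 2.2. Growing replicate 4 was the lowest of its group in *HMGB2* (ratio 0.765) and in *HMGB3* (0.786). RIS replicate 2 was the highest of its group in *HMGB2* (0.813) and in *HMGB3* (0.710). These 4 values come from the same 2 libraries that the principal component set apart. The total count of growing replicate 1 (0.796) and of RIS replicate 3 (0.684) was the highest of the group.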

How the results depend on the processing

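Of 1189 values of single members under 20 alternatives, 1141 kept their side of the thresholds, 13 lost a call, 35 gained one and 0 reversed a called direction. Between RIS and growing, 0 members were called in the main analysis, 1 with DESeq2 (829 genes in all), 2 at an FDR under 0.05 (1537), 3 with limma voom (6317), 2 without growing replicate 4 (3420), 3 without RIS replicate 2 (2579), 3 without both (5331), and 0 to 2 when each replicate number was left out in turn (0 to 2083). Between shHMGA1 and growing, limma voom called 2 (*HMGN3* in addition) among 845 genes against 36 in the main analysis. Every leave-out of a number called 1 there (5 to 25 genes in all). Between RIS+shHMGA1 and RIS, edgeR's glmTreat against the fold threshold called 0 members (5 genes in all, against 341 in the main analysis). Leave-outs called 1 to 2 of 2 there (14 to 2205 genes). The leave-outs gave 2 to 3 of 3 between RIS+shHMGA1 and shHMGA1 (3037 to 5502 genes in all). They gave 4 to 5 of 4 between RIS+shHMGA1 and growing (3058 to 7243), and 0 for the interaction (0 to 1). The cause of these shifts was not tested. Same-numbered libraries did not deviate together in every pair: the correlation over genes exceeded 0.1 in 5 of 6 pairs between shHMGA1 and growing (lowest 0.0747, and 5 of 6 libraries best with their own number), in 5 of 6 between RIS+shHMGA1 and RIS and between RIS+shHMGA1 and shHMGA1, and in 3 of 6 between RIS and growing and between RIS+shHMGA1 and growing. As no contrast had it in every pair, the numbers were not taken as a pairing. The deviations were from group means that held growing replicate 4 and RIS replicate 2, so that this rule cannot exclude a pairing. With a replicate block, 0 members were called between RIS and growing (1 gene in all) and 3 between RIS+shHMGA1 and shHMGA1 (5667). The block gave 1 between shHMGA1 and growing (36), 4 between RIS+shHMGA1 and growing (6456) and 0 for the interaction (0). Between RIS+shHMGA1 and RIS it gave 3, with *HMGN2* in addition, and 1637 genes in all against 341 without it. Depth limits *HMGN5*, with 3 reads in the library that had fewest.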
